A study of Mus musculus with 6 samples.

Results

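Enteroendocrine cells are the hormone-secreting cells of the gut lining. The transcripts described here are those of 35 genes listed for this cell type: gut hormones and transmitter peptides, granule proteins, enzymes that process prohormones or make serotonin, lineage transcription factors and proteins of vesicle release. The rule was a list of gene names and used no measured value, though the genes were chosen with earlier results of these data known. Of the 35 genes, 32 had at least 1 probe set that the platform annotation pairs with that gene alone, and 28 of those were bright enough to test, among 12994 genes tested in all. No probe set was named for Rfx6, Fev or Pcsk2, so these are not analysed here, and Pax4, Scg5, Resp18 and Snap25 stayed below the filter described with their values.

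The RNA came from epithelial cells of the small intestine of C57BL/6 mice at 14 days of age (2 weeks), detached with EDTA, and was hybridized to Affymetrix mouse arrays, 1 array per sample. The 3 replacement samples had the genotype Ecadflox/Ncad;Vil-Cre, labelled as carrying N-cadherin and lacking E-cadherin; Vil-Cre is a recombinase under the villin promoter, which is active throughout the gut epithelium. The 3 control samples came from E-cadherin-positive littermates, labelled only as control, so it is unknown here whether they carried the floxed allele, the N-cadherin allele or Vil-Cre. The comparison asked what differs when N-cadherin stands in for E-cadherin. Cdh1, the E-cadherin gene, read 2757, 2335 and 2204 in the controls and 1073, 1175 and 1357 in the replacement arrays, lower on every replacement array but not absent (log2 difference -1.06, SE 0.240, adjusted p = 0.0251 by limma). Where its probes lie relative to the floxed exons was not analysed here.

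Enteroendocrine cells arise from crypt progenitors that escape Notch signalling and switch on the transcription factor Neurog3. Further factors such as Neurod1 and Pax6 then direct the choice of hormone. The hormone is stored in dense-core granules built around chromogranins and secretogranins, and prohormone convertases cut it from a longer precursor. The cells differ along the gut: Gip is made mostly in the duodenum and jejunum, Gcg and Pyy toward the ileum and colon, and serotonin cells occur throughout.

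Each array was scaled by the authors to the same trimmed mean of 100, and 55.1% to 61.8% of its probe sets reached an intensity of 16, which was used as the floor. Over 5109 bright probe sets the log2 ratio of control 2 to control 3 had an SD of 0.115, against 0.347 to 0.564 for the other pairs within a group and 0.0812 to 0.134 for hybridization controls. They were averaged and counted as 1 sample, which left 2 control and 3 replacement replicates. No label ties each sample to an animal of its own, and the p-values rest on the spread among samples, which may be technical. Enterocyte markers were bright on all arrays, as the label of epithelial cells implies: Vil1 ranged from 2768 to 3259. By Xist and Y-linked transcripts, control 1, replacement 2 and replacement 3 were female and the other 3 arrays male, and the same 3 female arrays carried more RNA of pancreatic acinar genes. The summed intensity of 6 such genes was 1800 in control 1, 3726 in replacement 2 and 2724 in replacement 3, against 424 to 715 in the male arrays. Sex and acinar RNA therefore cannot be told apart here, and results are given within the sexes where they differ.

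The windows of 250 bases before the start site of 3 hormone genes, and of the granule gene Chgb, are shown so that the letters upstream of the 3 hormones with the most negative differences (Gip and Sct, which passed the test, and Sst, which did not) can be set beside those of a granule gene with a small difference. They are from RefSeq on GRCm38.p6, which held a promoter for 30 of the 35 genes. Gip lies at chr11:96024295-96024544 on the + strand, Sct at chr7:141279134-141279383 on the - strand, Sst at chr16:23890845-23891094 on the - strand and Chgb at chr2:132781392-132781641 on the + strand. Capitals mark the E-box CANNTG, bound by factors of the Neurog3 and Neurod1 class, and the cAMP response element TGACGTCA. Both were searched on both strands, and they did not overlap in these windows.
Gip: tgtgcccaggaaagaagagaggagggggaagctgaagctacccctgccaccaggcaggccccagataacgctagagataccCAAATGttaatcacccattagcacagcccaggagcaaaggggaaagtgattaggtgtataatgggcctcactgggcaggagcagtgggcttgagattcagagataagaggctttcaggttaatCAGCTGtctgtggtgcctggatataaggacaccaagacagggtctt
Sct: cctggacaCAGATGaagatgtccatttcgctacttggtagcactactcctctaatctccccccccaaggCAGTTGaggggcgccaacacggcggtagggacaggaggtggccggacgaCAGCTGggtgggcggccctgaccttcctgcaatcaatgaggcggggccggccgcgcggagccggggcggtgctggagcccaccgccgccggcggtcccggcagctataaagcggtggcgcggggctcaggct
Sst: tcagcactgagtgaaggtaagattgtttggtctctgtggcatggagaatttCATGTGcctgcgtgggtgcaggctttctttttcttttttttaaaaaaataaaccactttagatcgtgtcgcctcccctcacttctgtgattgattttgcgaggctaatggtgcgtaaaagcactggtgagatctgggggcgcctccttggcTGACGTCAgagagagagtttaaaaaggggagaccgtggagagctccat
Chgb: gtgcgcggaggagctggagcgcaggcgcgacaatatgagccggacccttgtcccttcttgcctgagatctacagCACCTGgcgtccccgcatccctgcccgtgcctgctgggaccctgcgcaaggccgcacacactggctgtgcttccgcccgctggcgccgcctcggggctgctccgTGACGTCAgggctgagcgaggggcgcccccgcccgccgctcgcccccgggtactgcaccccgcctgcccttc
The Gip window held 2 E-boxes and the Sct window 3, while Sst and Chgb held 1 each. E-boxes occurred in 66.2% of the 32851 promoters of this length, and 23 of the 30 genes with a promoter held the motif in at least 1 promoter. These are unlike units, since Ghrl, Pax6, Pyy, Ddc and Tph1 have more than 1 promoter each. The response element was found in Sst, 48 bases before the start, and in Chgb, 72 bases before it. It was also found in Pcsk1, Scg2 and 1 of the Pax6 promoters. Of all promoters 1.55% held it. A match describes the letters only.

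Among the 28 tested genes, 2 fell and none rose at an adjusted p under 0.05 (limma with Benjamini-Hochberg adjustment over all genes tested), where 4.66% of all genes were lower, 4.46% were higher and 9.12% were called in either direction. A count of 2 in 28 is close to that background. At an unadjusted p under 0.05 there were 7 of 28, against 24.3% of all genes, and the median difference was -0.02, as over all genes (-0.02). By these counts the whole group lay near the background. The 9 hormone and transmitter peptides had a median log2 difference of -0.99 with 8 of 9 below 0, where 52% of all genes were below 0, and the other 19 genes a median of 0.04 with 8 of 19 below 0. These medians describe the lists and were not tested. In whole epithelium, fewer cells of a type and less RNA per cell cannot be told apart.

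**Figure D1:**
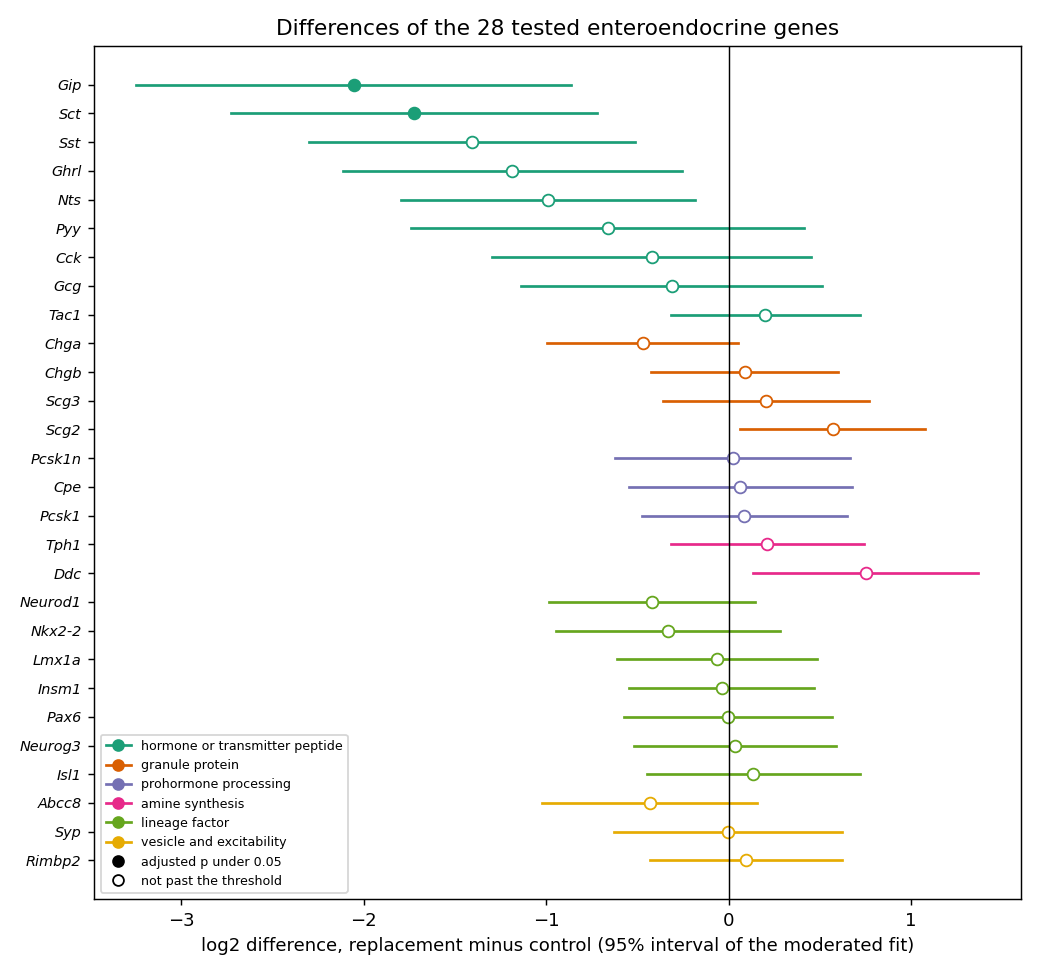
Log2 difference (replacement minus control) of each of the 28 tested enteroendocrine genes with its 95% interval from the moderated fit, coloured by role, filled where the adjusted p was under 0.05. Gip and Sct are the filled points, and the other hormones apart from Tac1 lie below 0, while most granule, processing and lineage genes lie near 0.

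Gip, which encodes the incretin glucose-dependent insulinotropic polypeptide of K cells, had intensities of 1631, 928 and 1003 in control 1, 2 and 3 and of 691, 159 and 251 in replacement 1, 2 and 3. The groups did not overlap, and replacement 1 stood much closer to the controls than the other replacement arrays did. Between geometric means of 1254 and 302 Gip fell 4.16-fold, a change of -2.06 in log2 with an SE of 0.531 (limma adjusted p = 0.0424, n = 2 and 3).

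Sct, which encodes secretin, the hormone that calls forth bicarbonate secretion from the pancreas, had 486, 600 and 685 in the controls and 287, 84.4 and 199 in the replacement arrays. Here too the groups did not overlap, and replacement 2 was lowest. It fell 3.30-fold between geometric means of 558 and 169, a change of -1.72 in log2 with an SE of 0.447 (limma adjusted p = 0.0430, n = 2 and 3).

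Both calls lay close to the threshold. For Gip, leaving out one array or pair gave -1.68 without control 1 (adjusted p = 0.446), -2.03 without control 3 (0.0503), -2.43 without control 2 and control 3 together (0.295), -1.59 without replacement 2 (0.124) and -1.92 without replacement 3 (0.184), none of them past the threshold. For Sct the same omissions gave -1.92 (0.328), -1.68 (0.0506), -1.52 (0.388), -1.22 (0.0697) and -1.84 (0.138). Without replacement 1 both differences were larger, -2.65 for Gip (adjusted p = 0.00563) and -2.11 for Sct (0.0197), where 6.41% of all genes were lower. Each difference stayed below 0 in all 19 alternatives, and each was called in 10 of them.

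Sst encodes somatostatin, which holds back the release of other hormones. Its intensities were 461, 360 and 358 in the controls and 270, 93.9 and 143 in the replacement arrays, with no overlap. The log2 difference was -1.41 (SE 0.397, 95% interval -2.30 to -0.51, adjusted p = 0.0576), just outside the threshold, and 9 of 19 alternatives put it inside.

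Nts encodes neurotensin, a peptide of ileal N cells that is released on fat intake. Its values were 1366, 1817 and 1856 in the controls and 1330, 637 and 598 in the replacement arrays. The lowest control and replacement 1 nearly touched. The log2 difference was -0.99 (SE 0.360, adjusted p = 0.125), and it was called in 2 of 19 alternatives.

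Ghrl encodes ghrelin, the appetite-stimulating hormone of gastric and upper intestinal endocrine cells. It was dim, with 72.8, 48.1 and 53.9 in the controls and 50.1, 17.8 and 21.5 in the replacement arrays. Replacement 1 lay inside the control range and the others far below it (log2 difference -1.19, SE 0.415, adjusted p = 0.114), with a call in 2 of 18 alternatives.

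Pyy, Gcg and Cck varied as much within a group as between groups. Pyy encodes peptide YY, a satiety hormone of L cells, and read 232, 506 and 447 in the controls and 372, 112 and 223 in the replacement arrays (log2 difference -0.66, SE 0.479, adjusted p = 0.450). Gcg, the proglucagon gene from which L cells make glucagon-like peptides, read 107, 276 and 266 against 157, 135 and 121, so that its lowest value of all was control 1 (-0.31, SE 0.367, adjusted p = 0.664). Leaving out 1 array moved these values without bringing either past the threshold: Gcg had -0.98 without control 1 (adjusted p = 0.203), and Pyy ran from -1.18 without control 1 to -0.21 without replacement 2.

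Cck encodes cholecystokinin, which empties the gallbladder, and had 180, 160 and 163 in the controls and 227, 81.2 and 112 in the replacement arrays (log2 difference -0.42, SE 0.389, adjusted p = 0.567). Replacement 1 was the highest of all 6 arrays, and the difference was -0.84 without it and -0.10 without replacement 2. Control 1, set against control 2 and control 3, was higher in Gip, Sst, Ghrl and Cck and lower in Sct, Nts, Gcg, Pyy and Tac1. The controls themselves thus differed in which hormones were abundant, and control 1 was the only female control.

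Tac1, the gene of substance P and neurokinin A, found in serotonin cells and in enteric neurons, was the one peptide with a difference above 0. Its values were 149, 174 and 171 in the controls and 176, 200 and 177 with replacement, giving 0.20 in log2 (SE 0.230, 95% interval -0.31 to 0.72, adjusted p = 0.654). The groups did not overlap, but the highest control and the lowest replacement array nearly touched.

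Replacement 2 held the lowest intensity of the 6 arrays for 6 of the 9 peptides, and replacement 3 for Nts. The lowest values of Gcg and Tac1 were in control 1.

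**Figure D2:**
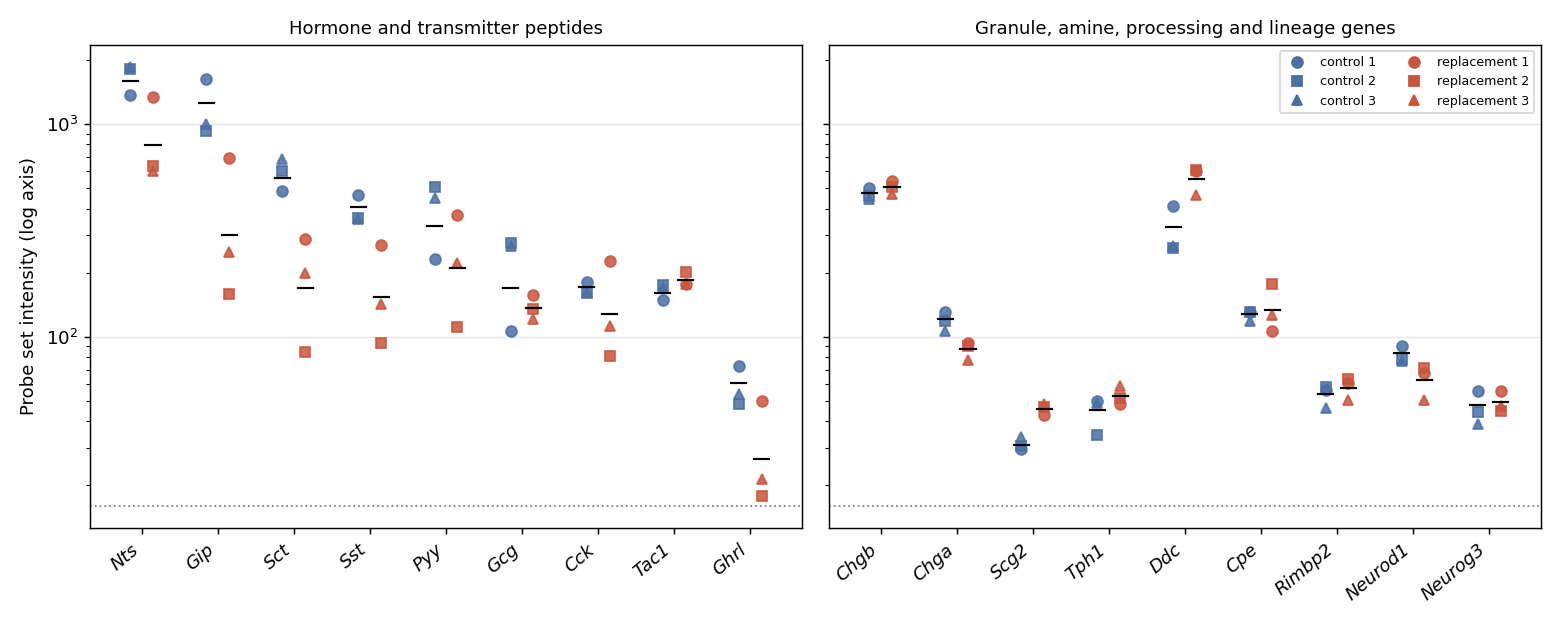
Probe set intensity (log axis) on each of the 6 arrays for the 9 peptide genes (left) and for 9 genes of granules, amines, processing, vesicles and lineage (right), with black bars at the geometric means of the groups, in which control 2 and control 3 count once, and a dotted line at the floor of 16. Gip, Sct and Sst run from control values of 358 to 1631 to replacement values of 84.4 to 691, whereas Chgb stays between 442 and 537 on all arrays.

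None of the 4 tested granule genes passed the test, and 3 of them had differences above 0. Chgb, encoding chromogranin B, a core protein of most endocrine granules, had 500, 457 and 442 in the controls and 537, 507 and 469 in the replacement arrays. These overlapping values gave a log2 difference of 0.09 (SE 0.227, 95% interval -0.42 to 0.60, adjusted p = 0.861).

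Chga, chromogranin A, had 130, 119 and 106 against 93.4, 90.9 and 78.0, with no overlap and a log2 difference of -0.47 (SE 0.233, adjusted p = 0.253). Scg2, secretogranin II, went the other way, with 29.7, 30.6 and 33.8 against 43.1, 46.6 and 48.1 (0.57, SE 0.225, adjusted p = 0.153). Neither passed the threshold in the fit or in any alternative. Scg3, a secretogranin that binds chromogranin A, lay at or near the floor, between 1.9 and 23.2 (0.20, SE 0.251).

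Below the filter, which asked for an intensity of 16 on at least 3 of 6 arrays, were a pair of granule genes. Scg5, the chaperone of the convertase Pcsk2, reached it in control 1 alone (19.2) and read 7.8 to 12.7 elsewhere. Resp18, an endocrine granule protein, read 17.1, 14.5 and 13.6 in the controls and 1.1, 1.1 and 1.4 in the replacement arrays. All but 1 of these Resp18 values are under the floor, so no fold is given.

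The genes of prohormone processing had small differences. Pcsk1, the convertase that cuts proglucagon and other precursors in gut cells, read 31.7, 28.6 and 18.4 against 30.0, 25.3 and 30.9 (log2 difference 0.09, SE 0.251, 95% interval -0.48 to 0.65). Cpe, the carboxypeptidase that trims the cut peptides, read 131, 130 and 119 against 106, 177 and 126 (0.06, SE 0.272, 95% interval -0.55 to 0.68). Pcsk1n, which encodes an inhibitor of Pcsk1, was close to the floor at 7.6 to 26.3 (0.02, SE 0.287). For all 3 genes the groups overlapped, and none of these genes was called in any alternative.

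Serotonin synthesis was also measured. Tph1, the rate-limiting hydroxylase of enterochromaffin cells, read 50, 34.6 and 49 against 48.2, 51.7 and 58.4, a log2 difference of 0.21 (SE 0.236, 95% interval -0.32 to 0.74, adjusted p = 0.643). Ddc, the decarboxylase that completes serotonin and is made in enterocytes too, read 412, 260 and 265 against 601, 606 and 465. Its groups did not overlap, and the difference of 0.75 (SE 0.276, adjusted p = 0.128) did not pass. With all 6 arrays as separate replicates it was 0.86 (adjusted p = 0.0331), a setting in which 8.6% of all genes were higher. A second Ddc probe set lay below the filter.

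Among the 7 lineage factors tested none passed the threshold, and 1 had arrays that did not overlap. That one was Neurod1, which acts after Neurog3, at 90.1, 78.4 and 76.6 against 67.7, 71.3 and 50.6 (log2 difference -0.42, SE 0.252, 95% interval -0.98 to 0.15, adjusted p = 0.353). Its second probe set gave -0.51, with 64.1, 69.4 and 53.2 against 37.5, 54.7 and 41.1. The groups of this second set overlapped, and it was not tested. The first set's difference was below 0 in all 19 alternatives, at -0.27 without replacement 3.

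Neurog3, the factor that starts the endocrine lineage, read 55.3, 44.2 and 38.9 against 55.5, 45.0 and 47.4, a log2 difference of 0.04 (SE 0.247, 95% interval -0.52 to 0.59). Its values overlapped throughout. Insm1 (20.2 to 23.0), Pax6 (21.6 to 30.9), Isl1 (4.6 to 24.4), Nkx2-2 (12.8 to 27.2), and Lmx1a (4.0 to 21.7) were dim, and their differences ran from -0.33 for Nkx2-2 to 0.13 for Isl1. At such levels a floor of 16 compresses differences. Pax4, the factor that favours the serotonin and somatostatin fates, never reached the floor and had 3.7 as its highest value.

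Of the genes of vesicle release and excitability, Rimbp2, which ties calcium channels to the release site, read 56.2, 58.0 and 46.4 against 60.4, 63.1 and 50.4 (log2 difference 0.10, SE 0.234). Syp, the vesicle protein synaptophysin, read 15.9 to 25.8 (-0.00, SE 0.278). Abcc8, the sulfonylurea receptor subunit of the potassium channel that couples glucose to secretion, read 28.1, 19.8 and 16 against 10.3, 16.5 and 17.2 (-0.43, SE 0.262, adjusted p = 0.354). Snap25, a protein of vesicle fusion, was under the floor throughout (10.6 or less).

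In total, 6 of the 28 genes had replacement arrays all below the controls and 3 had them all above, against 18.8% and 17.8% of all genes. These shares are near the background. The genes below were Gip, Sct, Sst, Nts, Chga and Neurod1, and those above were Tac1, Ddc and Scg2.

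Differences were computed within the female arrays (control 1 against replacement 2 and 3) and within the male arrays (control 2 and 3 against replacement 1). Gip differed by -3.03 in females and -0.48 in males, Sst by -1.99 and -0.41, Ghrl by -1.90 and -0.02, Nts by -1.15 and -0.47, and Sct by -1.91 and -1.16, each further below 0 in females. Pyy had -0.56 and -0.35, Cck -0.92 and 0.49, and Tac1 0.34 and 0.03, while Gcg went the other way with 0.26 in females and -0.79 in males. Each of these values rests on 1 array of one group, and the difference between the sexes passed for none of the 28 genes in an interaction fit with 1 residual degree of freedom (smallest adjusted p = 0.586), nor for any gene in the table. With sex as a covariate Gip had -1.94 (adjusted p = 0.0254), Sct -1.59 (0.0188) and Sst -1.32 (0.0419), all 3 past the threshold, where 5.39% of all genes were lower.

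**Figure D3:**
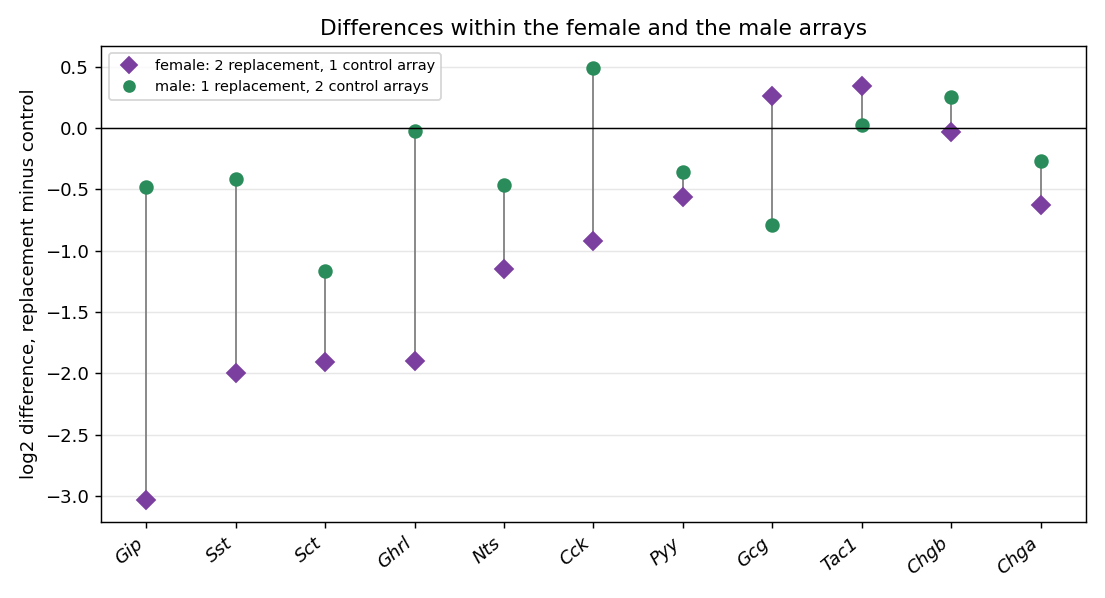
Log2 difference (replacement minus control) within the female arrays (diamonds, 2 replacement and 1 control) and within the male arrays (circles, 1 replacement and 2 control) for the 9 peptides, Chgb and Chga, with no error bars since each value rests on a single array of one group. Gip, Sst, Sct, Ghrl and Nts lie lower in females, and Gcg and Cck have opposite signs in the sexes.

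RNA from other tissues can carry some of these transcripts. The acinar genes were high on the female arrays, and none of 6 passed the test between the groups: Cpa1, a pancreatic carboxypeptidase, read 123, 0.5 and 0.9 in the controls and 1.1, 547 and 245 in the replacement arrays. Islet cells also make Sst, Gcg, Ghrl and Pyy. Of the islet markers Nkx6-1 was under 16 on every array, and Ins2 read 26.9 to 67.6 in the controls and 46.3 to 82.7 in the replacement arrays. Iapp, islet amyloid polypeptide, read 36.2, 23.2 and 27.5 against 48, 37 and 52.1, higher on every replacement array (0.58, SE 0.269, adjusted p = 0.222). Slc2a2 fell (-1.80, SE 0.227, adjusted p = 0.00162), but enterocytes express it as well. Of 12 measured neuronal markers 5 were under 16 on all arrays, among them Tubb3, Stmn2 and Elavl4. The summed level was 309 to 400 in the controls and 253 to 389 in the replacement arrays, most of it from Ret and Nos1. Ret read 97, 193 and 166 against 143, 121 and 96.5 (-0.15). Nos1 read 88.4, 103 and 103 against 86.2, 69.8 and 51.3, lower on every replacement array (-0.50, SE 0.276, limma adjusted p = 0.309). Of the 4 glial markers S100b fell, from 103, 74.5 and 72.7 to 19.5, 33.6 and 32.7 (-1.65, SE 0.307, limma adjusted p = 0.0109). The summed level was 131 to 187 against 81.4 to 108. Sox10 (-0.35) and Gfap (0.08) overlapped between the groups and were not called, and Fabp7 was under 16 on all arrays. Of 8 measured immune markers Csf1r fell, from 2427 to 2504 in the controls to 738 to 1271 with replacement (-1.44, SE 0.287, limma adjusted p = 0.0143). The summed level was 2729 to 3061 against 1111 to 1748, and Csf1r made up most of it. Cd3e and Cd3g were under 16 on all arrays. Ptprc read 56.4, 11 and 12.4 against 23.5, 11.2 and 20.1 (-0.61), and Cd79a had -0.20, each with overlap and neither called. Itgam read 12.3, 5.7 and 6 against 13.2, 15.4 and 28.3, higher on every replacement array. Most of its values were under 16, and it was not tested. Cd8a read 67.9, 57.8 and 62.9 against 83.3, 51.7 and 72.1 (0.08). Lyz2 read 456.4, 172.4 and 142.5 against 320.3, 222.5 and 232.9 (-0.07). Both overlapped between the groups. The 6 fibroblast markers summed to 1087 in control 1, 162 and 171 in the other controls and 329 to 429 in the replacement arrays. The part of acinar, neuronal, glial, immune and fibroblast RNA in the hormone values was not tested.

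Beyond the 35 genes, a list of 60 other enteroendocrine genes had 52 with a probe set and 40 tested, of which 4 rose and 2 fell, with a median of 0.02, where 4.46% of all genes were higher and 4.66% lower. Slc18a1, the vesicular transporter that loads serotonin into granules, fell from 323, 475 and 480 to 182, 163 and 200 (log2 difference -1.12, SE 0.259, adjusted p = 0.0276). With its probe sets averaged it was not called and the difference was -0.49 (adjusted p = 0.263). Vamp2, a vesicle fusion protein of many cell types, fell from 132, 108 and 101 to 58.7, 47.9 and 34.0 (-1.36, SE 0.286, adjusted p = 0.0186).

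Those that rose are not confined to endocrine cells. They were Ffar4, a receptor for long-chain fatty acids (1.49, SE 0.305, adjusted p = 0.0167), Sox4, a progenitor factor (1.36, SE 0.249, adjusted p = 0.0102), Foxa1, which opens chromatin in gut epithelium (1.27, SE 0.295, adjusted p = 0.0280), and Rab27a, a GTPase of granule docking (0.87, SE 0.235, adjusted p = 0.0488). With probe sets averaged Rab27a had 0.32 (adjusted p = 0.450) and Sox4 0.84 (adjusted p = 0.0575), neither past the threshold.

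The receptors and clearing enzymes on the receiving side were mostly dim or unmeasured: 15 of 28 were tested, 3 fell and none rose by limma, against 4.66% and 4.46% of all genes, with a median of -0.24 and 5 of 15 at an unadjusted p under 0.05. Maob, which degrades amines, fell from 1848, 2210 and 2210 to 516, 408 and 362 (log2 difference -2.25, SE 0.253, adjusted p = 9.21e-04). The brush border peptidases Ace (-1.82, SE 0.426, adjusted p = 0.0286) and Anpep (-1.16, SE 0.298, adjusted p = 0.0416) fell too. Maoa, which also degrades serotonin, had 0.53 (adjusted p = 0.197), Slc6a4, the serotonin uptake transporter, -0.56 (adjusted p = 0.192), and Dpp4, which inactivates incretins, -0.58 (adjusted p = 0.360).

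Among 15 tested genes of secretory fate control, 2 rose and 2 fell, where 9.12% of all genes were called in either direction, with a median of -0.03. The Notch ligand Jag1 rose (1.01, SE 0.240, adjusted p = 0.0302) and so did Sox9 (1.04, SE 0.281, adjusted p = 0.0495), a factor of crypt progenitors. The Notch ligand Dll1, borne by young secretory cells, fell (-0.94, SE 0.230, adjusted p = 0.0349), as did Id2 (-1.69, SE 0.280, adjusted p = 0.00642), an inhibitor of E-box-binding factors. Atoh1, which opens the secretory fates, had 0.33 (adjusted p = 0.497) and Hes1, the Notch target that opposes it, 0.51 (adjusted p = 0.287).

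Products of the other secretory lineages gave a background for the hormones. None of 9 goblet markers passed, with a median of -0.13, and Muc2 had -0.17 (adjusted p = 0.830). Of 5 Paneth markers Mmp7 rose (1.30, SE 0.340, adjusted p = 0.0440), Lyz1 had -0.53 (adjusted p = 0.425) and Itln1 -1.09 (SE 0.438, adjusted p = 0.158), so the list went both ways. None of 6 tuft markers passed (median 0.03). The summed goblet level was 13947 to 18788 in the controls and 11303 to 21392 in the replacement arrays, and replacement 2, which was lowest for 6 of the 9 peptides, was lowest here as well. The single goblet genes did not all follow the sum. Muc2, Tff3, Fcgbp, Zg16 and Spink4 were lowest in replacement 2, but Atoh1 (117) and Spdef (120) were highest there. Replacement 2 was also lowest in the sum of 8 enterocyte markers, at 24276 against 30257 to 33852 on the other arrays.

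**Figure D4:**
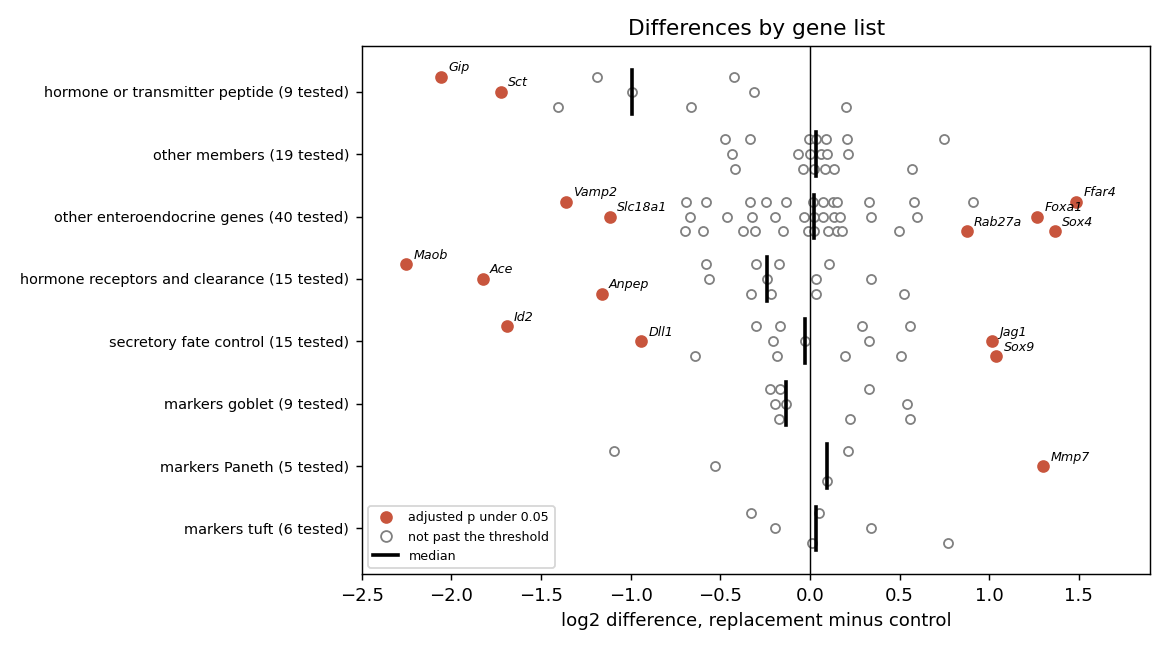
Log2 difference (replacement minus control) of every tested gene of 8 lists, in rows with the number tested, where filled points passed an adjusted p of 0.05 and the bar marks the median. The peptide row has a median of -0.99 and the other rows medians between -0.24 and 0.09.

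Of the 13 called genes named from these 3 lists, all kept their direction in every alternative that measured them. None stayed past the threshold without control 1, or without control 2 and control 3 together. Without replacement 2 there were 3 (Sox4, Maob and Id2), and without replacement 3 there were 2 (Maob and Id2). With a floor of 32 only Maob remained, and with no filter none did. Sox9 was lost also without control 2, Rab27a and Sox9 without control 3, and Rab27a without replacement 1. With probe sets of each gene averaged, Slc18a1, Sox4, Jag1, Rab27a and Sox9 were lost, and with arrays scaled to their medians Slc18a1, Foxa1, Rab27a, Anpep, Dll1 and Sox9. Rab27a was lost also with no floor, with the trend and robust options of eBayes, with sex as a covariate and, together with Jag1 and Sox9, with arrays shifted to equal Chgb.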

How the data were processed

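The authors' deposited table holds linear probe set intensities of 6 arrays, scaled by the authors before deposit. The submitters' processing notes name limma and GCRMA without versions. The deposited values are linear, with a trimmed mean of 100 and array medians of 19.8 to 26.5. Whether they are the output of GCRMA or of another method is unknown here.

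Intensities were floored at 16 and log2 was taken, which compresses differences of dim transcripts. Probe sets needed 16 or more on 3 of the 6 arrays, names came from the platform annotation (of 45101 probe sets 34945 had 1 gene, 932 several and 9160 none; 34741 matched a RefSeq gene of GRCm38.p6), and the brightest kept probe set stood for its gene. Control 2 and control 3 were averaged. limma 3.58.1 in R 4.3.3 (lmFit, eBayes) was fitted over 12994 genes with Benjamini-Hochberg adjustment at 0.05. All log2 differences have the control subtracted from the replacement group, and SEs and 95% intervals come from the moderated variance. The fit was tested on simulated data. For arrays no read depth exists, and their number limits the precision.

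The genes, lists and naming rule were chosen with earlier results of these data known. All 35 genes are named, as are the called genes of 3 further lists, or up to 4 with the smallest p where fewer passed. For the marker lists the rule allowed up to 3 defining genes with the highest mean, but it was not kept to. The brightest goblet, enterocyte and acinar markers, among them Tff3, Apoa1 and Ctrb1, were passed over for Muc2, Vil1 and Cpa1. The called, absent or other markers outside the rule, and Atoh1, Hes1, Maoa and Dpp4, were named after their values were seen. Alternatives covered replicates, floor, filter, normalization, probe sets, eBayes options and sex. matplotlib 3.10.9 drew the figures.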

Additional observations from a re-analysis of the deposited data

Results flagged for a closer look

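In 7 of the 28 genes every array comparison had one sign in the female arrays and the opposite in the male arrays, as in 22% of all genes. The interaction fit of sex and replacement passed for none of them. The difference between the sexes (female minus male) was -1.41 for Cck (-0.92 in females and 0.49 in males, interaction adjusted p = 0.586) and 1.05 for Gcg (0.26 and -0.79, adjusted p = 0.586). For dim factors it was -0.95 for Nkx2-2 (adjusted p = 0.586), -0.68 for Neurog3 (0.586), -0.63 for Pax6 (0.613) and -0.54 for Lmx1a (0.625). The convertase Pcsk1 had -0.57 (adjusted p = 0.627). With 1 residual degree of freedom these values rest on single arrays.

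A second Neurog3 probe set, outside the comparisons because it lay below the filter, read 9.5, 16.7 and 11.8 in replacement 1, 2 and 3 and 2.9, 14.5 and 4.1 in control 1, 2 and 3. The groups overlapped, and 16.7 alone exceeded the floor and the highest control.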

How the results depend on the processing

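Gip, Sct, Sst, Nts, Chga, Cck, Pyy and Neurod1 kept differences below 0 in all 19 alternatives. Of all genes 580 were higher and 605 lower, and of the enteroendocrine genes 0 and 2. With all 6 arrays as separate replicates these became 1118 and 1234, with 1 enteroendocrine gene higher and 4 lower. A replicate block gave 994 and 1108, with 1 and 4. These settings count control 2 and control 3 as separate samples though they were nearly alike, and their calls are included in the tallies of alternatives. Same-numbered samples did not deviate together (correlations -0.017, -0.001 and -0.055, and no control matched its own number best). With so few samples and control 2 and control 3 nearly alike, this check cannot decide whether the numbers pair the samples. Leaving out 1 array gave 8 to 827 genes higher and 3 to 833 lower, and 0 to 5 enteroendocrine genes lower, with the fewest calls without control 1 and the most without replacement 1. Without control 2 and control 3 together, which leaves 1 control, 3 were higher and 1 lower, with 0 enteroendocrine genes. A floor of 32 gave 143 and 147 and no filter 70 and 92, with 0 enteroendocrine genes lower in each; scaling to medians gave 386 lower. Quantile normalization left 0 enteroendocrine genes lower and eBayes with trend and robust options 1, Sst. The cause was not tested.

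Signs turned in 11 genes, none past the threshold. With all 6 arrays, and with the block, Pax6 had 0.082, Pcsk1n -0.074 and Syp 0.047. Quantile normalization gave Pax6 0.036, Pcsk1n -0.11, Syp 0.043, Insm1 0.0059 and Lmx1a 0.037. Scaling to medians gave 0.038, -0.106, 0.032, 0.0014 and 0.027. The mean of probe sets gave Pax6 0.12, Syp 0.040 and Isl1 -0.043, and no floor gave Pcsk1n -0.14, Syp 0.0015 and Isl1 -0.13. Shifting arrays to equal Chgb, added after the data were seen, gave Neurog3 -0.051, Pcsk1n -0.065, Pcsk1 -0.0014 and Cpe -0.023. Without control 2 and control 3 together Neurog3 had -0.17, Gcg 0.36 and Pcsk1 -0.15. Leaving out 1 array gave -0.14 to 0.23 for Cpe, -0.084 to 0.0094 for Insm1, -0.014 to 0.29 for Isl1, -0.17 to 0.049 for Lmx1a, -0.052 to 0.24 for Neurog3, -0.42 to 0.018 for Nkx2-2, -0.051 to 0.25 for Pax6, -0.073 to 0.32 for Pcsk1, -0.27 to 0.18 for Pcsk1n and -0.14 to 0.21 for Syp. Genes at the floor of 32 on all arrays have no value there. Signal near the floor limits the dim factors.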
